A study of Mus musculus with 4 samples.

Results

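The transcription factor MYC and 38 factors that build ribosomes, 39 genes in all, were followed in mouse T cells stimulated through 1 of 2 T cell receptors by 1 of 2 peptides. The genes were chosen by name as a functional module, with earlier results of these data known, and all 39 were found among the 16338 rows of the deposited tables. They comprise Myc itself, 6 nucleolar multifunction factors, 4 proteins of box C/D and 3 of box H/ACA small nucleolar ribonucleoproteins (snoRNPs), 5 RNA polymerase I factors, 10 small subunit assembly factors and 10 large subunit assembly factors. RNA sequencing gave 1 library for each combination of receptor and peptide: TRP1high with M9, TRP1high with K8, TRP1low with M9 and TRP1low with K8. In each, the T cells had met peptide-loaded B cells for 48 h and were then sorted from the co-culture, and total RNA was prepared. TRP1 is tyrosinase-related protein 1, a melanocyte protein and melanoma antigen, and the series concerns the effector function of CD8 T cells when a peptide binds differently to MHC class I. The labels give no unstimulated cells, no mouse strain or age, no way in which the receptor was introduced, and no replicate culture, so no difference between libraries can be set against the spread between cultures.

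Ribosome production begins in the nucleolus, where RNA polymerase I transcribes the ribosomal RNA precursor. The snoRNPs guide the methylation and pseudouridylation of that RNA, and large sets of assembly factors cut it, fold it and load it with ribosomal proteins to give the small and the large subunit. MYC is known to raise the transcription of genes for all of these steps, and T cells that receive a receptor signal induce Myc and enlarge their nucleoli before they divide.

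Many genes of this kind are known to carry an E-box, the DNA letters CACGTG to which MYC binds together with its partner MAX, close to the start site. The RefSeq promoter table (build GRCm38.p6, 250 bases before to 50 after each start) held 34 of the 39 members; Myc, Npm1, Fbl, Bop1 and Rrp12 were not among them. CACGTG, which reads the same on both strands, stood in the promoters of 9 of the 34 members (26.5%), in 8.09% of the 27025 genes of the table and in 11.3% of the 10654 that were also tested here. The variant CACGCG, or CGCGTG on the other strand, stood in 10 of the 34 members (29.4%), 10.5% of the table and 19.0% of the tested genes. Where a gene had several start sites, a match in any was counted, and neither set of letters overlaps the other except that Mybbp1a holds CACGCG and CGCGTG with 2 shared letters. A match is a run of letters and shows no binding.

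The promoters below belong to 4 of the 8 members that were 2-fold higher in TRP1high than in TRP1low with K8 and to Wdr43, whose level was nearly even, and are written 5′ to 3′ along the gene's strand with the matches in capitals. Nolc1, Ddx21 and Wdr43 were chosen for printing after their values were seen.
Nolc1, chr19:46075597-46075896 (+ strand): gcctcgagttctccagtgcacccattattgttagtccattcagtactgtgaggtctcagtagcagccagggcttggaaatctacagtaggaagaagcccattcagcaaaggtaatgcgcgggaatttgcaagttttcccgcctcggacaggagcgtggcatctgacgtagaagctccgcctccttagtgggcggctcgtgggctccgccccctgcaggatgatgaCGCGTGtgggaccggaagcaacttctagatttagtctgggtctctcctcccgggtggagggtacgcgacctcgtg
Ddx21, chr10:62602249-62602548 (- strand): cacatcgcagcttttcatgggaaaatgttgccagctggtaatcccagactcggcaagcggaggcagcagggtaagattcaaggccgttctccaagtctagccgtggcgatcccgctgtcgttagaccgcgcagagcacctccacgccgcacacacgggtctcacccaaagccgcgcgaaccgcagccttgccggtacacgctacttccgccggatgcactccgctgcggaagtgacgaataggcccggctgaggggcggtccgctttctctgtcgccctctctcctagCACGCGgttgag
Mybbp1a, chr11:72441077-72441376 (+ strand): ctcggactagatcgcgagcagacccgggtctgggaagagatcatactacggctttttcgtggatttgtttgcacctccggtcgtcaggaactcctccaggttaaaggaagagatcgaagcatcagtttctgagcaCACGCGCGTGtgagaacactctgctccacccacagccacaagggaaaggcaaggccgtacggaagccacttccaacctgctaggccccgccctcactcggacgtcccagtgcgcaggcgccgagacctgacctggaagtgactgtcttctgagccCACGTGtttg
Utp20, chr10:88826765-88827064 (- strand): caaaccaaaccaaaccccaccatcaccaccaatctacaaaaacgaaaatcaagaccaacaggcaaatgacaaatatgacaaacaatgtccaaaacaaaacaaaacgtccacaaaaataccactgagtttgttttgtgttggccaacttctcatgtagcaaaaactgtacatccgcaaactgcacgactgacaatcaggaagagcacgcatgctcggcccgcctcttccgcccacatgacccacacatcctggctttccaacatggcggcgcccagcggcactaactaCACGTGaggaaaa
Wdr43, chr17:71615965-71616264 (+ strand): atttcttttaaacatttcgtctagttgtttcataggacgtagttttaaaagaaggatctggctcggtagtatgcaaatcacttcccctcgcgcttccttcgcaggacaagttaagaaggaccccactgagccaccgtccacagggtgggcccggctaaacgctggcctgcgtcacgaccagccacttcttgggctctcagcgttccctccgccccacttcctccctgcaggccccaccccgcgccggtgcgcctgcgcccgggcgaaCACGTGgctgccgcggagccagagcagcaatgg
Counting the start site as base 1 and the base before it as -1, the match began at base -25 in Nolc1 and at base 39 in Ddx21, both the variant. The E-box began at base 41 in Mybbp1a, at base 38 in Utp20 and at base 18 in Wdr43. Among the 8 members, 2 held the E-box, against 7 of the 26 other members in the table (26.9%). The variant stood in 4 of these 8, against 6 of the 26 others (23.1%). Ncl, Nop14 and Polr1a, which are among the 8, held neither set of letters in this window.

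Values are log2 normalized counts with 1 added, as deposited, and a difference is 1 library minus another on that scale. The libraries held an estimated 41.5 M reads in TRP1high with M9, 40.5 M in TRP1high with K8, 40.3 M in TRP1low with M9 and 29.6 M in TRP1low with K8. Every member was deeply read, with at least 1521 estimated reads in each library, and the 95% counting interval of a member's log2 difference was at most 0.096 to either side. That interval covers counting error only, and the data hold no estimate of how far cultures differ. CD8 T cell markers summed to 134542 normalized counts in TRP1high with M9, 101228 in TRP1high with K8, 112314 in TRP1low with M9 and 117165 in TRP1low with K8. In the same order, the 14 B cell markers summed to 191, 2084, 398 and 1398, with Pax5 at 0 in TRP1high with M9 and Cr2 at 0 in both M9 libraries. Erythroid markers (5 of 6 measured) summed to 9.46, 3.18, 3.62 and 609 normalized counts in that order, and myeloid markers (5 of 8 measured) to 7.34, 12.8, 7.47 and 95. TRP1low with K8 therefore had the fewest reads, the most genes at 0 (1205, against 633 to 769 in the others) and the most erythroid and myeloid RNA. The part these differences play in the results was not tested. In such bulk RNA, fewer cells that express a gene and less of its RNA per cell cannot be told apart, and since the deposited values are scaled to each library, a change in total RNA per cell is not measured.

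The 39 genes together took 1.44% of all reads in TRP1high with M9, 1.53% in TRP1high with K8, 1.37% in TRP1low with M9 and 1.15% in TRP1low with K8 (95% Wilson intervals 1.43% to 1.44%, 1.53% to 1.53%, 1.36% to 1.37% and 1.14% to 1.15%). Ncl and Npm1 made up more than the 37 other members in TRP1high with M9, where those 37 took 0.707% of reads. Per kilobase of coding sequence, the mean level over the libraries was highest for Npm1 (181207 normalized counts) and Ncl (54130), followed by Nhp2 (28112) and Fbl (17636), and lowest for Utp20 (622.5) and Noc3l (828.3).

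**Figure D1:**
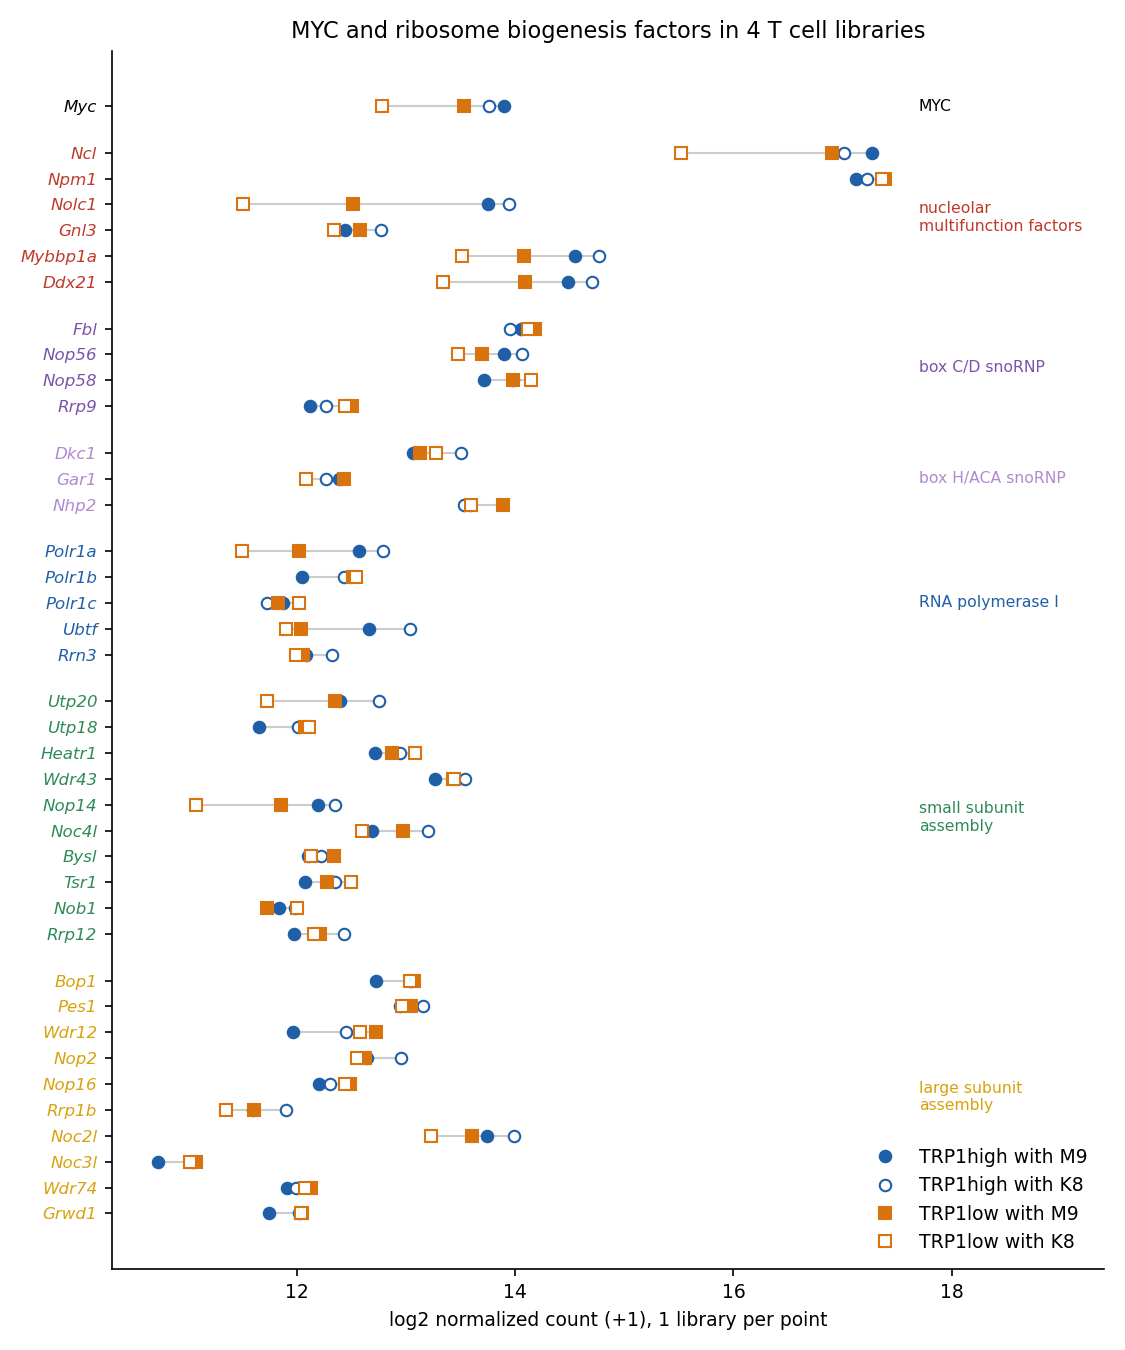
Level of each of the 39 members (rows, grouped by role) as deposited log2 normalized counts with 1 added (horizontal axis), with 1 point per library. For most rows the points lie close together, while for Ncl, Nolc1, Mybbp1a, Ddx21, Polr1a, Ubtf, Utp20 and Nop14 the TRP1low with K8 point lies at least 1 log2 unit below the TRP1high with K8 point.

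Myc, which lies on chromosome 15 (61985391 to 61990374, plus strand, GRCm38), was highest in both TRP1high libraries. It stood at 15239 normalized counts in TRP1high with M9, 13861 in TRP1high with K8, 11845 in TRP1low with M9 and 7048 in TRP1low with K8. The 3 first values lie within 0.36 on the log2 scale, and TRP1low with K8 stands apart below them. With K8, Myc was 1.97-fold higher in TRP1high than in TRP1low (95% counting interval 1.90 to 2.03), and in TRP1low it was 1.68-fold higher with M9 than with K8. With M9 the receptors differed by 0.36, and in TRP1high the peptides differed by 0.14.

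The nucleolar multifunction factors held the 3 members with the largest receptor difference with K8. Nucleolin (Ncl, chromosome 1, 86344719 to 86359400, minus strand) is an abundant nucleolar protein that acts in ribosomal RNA transcription and processing. It stood at 158382 normalized counts in TRP1high with M9, 131822 in TRP1high with K8, 122172 in TRP1low with M9 and 46859 in TRP1low with K8. Ncl was thus 2.81-fold higher in TRP1high than in TRP1low with K8 (2.78 to 2.85), and 2.61-fold higher with M9 than with K8 in TRP1low (2.58 to 2.64). Its share of all reads was 0.385%, 0.326%, 0.289% and 0.116% in the library order used above. Nolc1 (chromosome 19, 46075863 to 46085530, plus strand), a nucleolar chaperone of snoRNPs, had 13795 normalized counts in TRP1high with M9, 15711 in TRP1high with K8, 5829 in TRP1low with M9 and 2890 in TRP1low with K8. It was the member with the largest receptor difference under either peptide, 2.37-fold with M9 (2.29 to 2.44) and 5.44-fold with K8 (5.19 to 5.69), and within TRP1low it was 2.02-fold higher with M9 than with K8. Both TRP1high libraries lay above both TRP1low libraries.

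Mybbp1a, a nucleolar MYB-binding protein that takes part in ribosomal RNA synthesis and processing, stood at 23964 normalized counts in TRP1high with M9, 27883 in TRP1high with K8, 17350 in TRP1low with M9 and 11644 in TRP1low with K8. Ddx21, an RNA helicase of ribosomal RNA transcription and processing, stood at 22882, 26563, 17459 and 10367 in the same order. The receptor difference with K8 was 1.26 for Mybbp1a and 1.36 for Ddx21, and with M9 it was 0.47 and 0.39. Nucleophosmin (Npm1), the most abundant member and a histone and ribosomal protein chaperone of the nucleolus, was slightly lower in TRP1high. It had 142324 normalized counts in TRP1high with M9, 152408 in TRP1high with K8, 171464 in TRP1low with M9 and 168754 in TRP1low with K8. Ncl and Npm1 are both major nucleolar proteins, yet Ncl was 1.49 higher and Npm1 0.15 lower in TRP1high than in TRP1low with K8. Gnl3 (nucleostemin, a nucleolar GTPase) ran from 12.34 to 12.77 over the libraries.

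The 5 RNA polymerase I factors split. Polr1a, the largest and catalytic subunit, had 6072 normalized counts in TRP1high with M9, 7080 in TRP1high with K8, 4151 in TRP1low with M9 and 2875 in TRP1low with K8. Ubtf, the upstream binding factor that opens ribosomal DNA to the polymerase, had 6461, 8342, 4180 and 3834 in the same order. Both TRP1high libraries lay above both TRP1low libraries for these genes, by 1.30 for Polr1a and 1.12 for Ubtf with K8, and by 0.55 and 0.63 with M9. Polr1b, the second large subunit, was lower in TRP1high than in TRP1low, by 0.47 with M9 and 0.11 with K8, with log2 levels of 12.04, 12.43, 12.51 and 12.54 in the library order. Polr1c, a subunit shared with RNA polymerase III and the most abundant of the group per kilobase (3589 normalized counts), stood at 11.87, 11.72, 11.82 and 12.02, and its difference of -0.30 was the lowest of any member between receptors with K8. Rrn3, which recruits the polymerase to the promoter, stood between 11.99 and 12.32. Subunits of the same enzyme therefore differed in opposite directions between receptors.

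Of the 10 small subunit assembly factors, Utp20 and Nop14 were 2-fold apart between receptors with K8. Among the 3809 genes at least as abundant as the lowest member, 5.96% were 2-fold higher in TRP1high in that comparison and 1.84% lower. Utp20, a large scaffold protein of the small subunit processome, had 5353 normalized counts in TRP1high with M9, 6897 in TRP1high with K8, 5211 in TRP1low with M9 and 3375 in TRP1low with K8. Nop14, of the same complex, had 4658, 5204, 3679 and 2149 in that order. For both, TRP1low with K8 was the lowest library. Noc4l, a partner of Nop14, had the lowest peptide difference of any member in TRP1high (-0.50), with log2 levels of 12.69 with M9 and 13.20 with K8 in TRP1high, and 12.97 with M9 and 12.59 with K8 in TRP1low. Rrp12, an export factor, was also lower with M9 than with K8 in TRP1high (11.97 against 12.43), and stood at 12.21 with M9 and 12.15 with K8 in TRP1low.

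The other small subunit factors were closer to level. Wdr43, the most abundant of them per kilobase (5398 normalized counts), stood at 13.26 in TRP1high with M9, 13.54 in TRP1high with K8, 13.43 in TRP1low with M9 and 13.44 in TRP1low with K8. Utp18 was lower in TRP1high than in TRP1low with M9 by 0.42, with levels of 11.65, 12.01, 12.07 and 12.11. Heatr1, like Utp20 a long scaffold protein, stood at 12.71, 12.94, 12.87 and 13.08, highest in the library where Utp20 was lowest. Tsr1, a GTPase-like factor of late maturation, stood at 12.07, 12.35, 12.27 and 12.49, and Nob1, the endonuclease of the last cleavage of small subunit RNA, at 11.83, 11.98, 11.72 and 12.00. Nob1, Tsr1 and Heatr1 had the 3 lowest peptide differences in TRP1low (-0.28, -0.22 and -0.21). Bysl ranged from 12.10 to 12.34.

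No large subunit assembly factor was 2-fold apart in any comparison, which for so few genes is near the background. Between receptors with K8, 5.96% of the abundant genes were 2-fold higher in TRP1high and 1.84% lower. Wdr12, which forms a complex with Pes1 and Bop1, had the lowest receptor difference of any member with M9 (-0.76), with 3986 normalized counts in TRP1high and 6733 in TRP1low; with K8 it had 5605 in TRP1high and 6136 in TRP1low. Its partners differed less between receptors with M9, by -0.10 for Pes1 and -0.34 for Bop1. Noc2l had the highest receptor difference of the group with K8, 0.76, with 16252 normalized counts in TRP1high and 9606 in TRP1low, against 13689 and 12389 with M9. Nop16, the most abundant of the group per kilobase (9670 normalized counts), stood at 12.20, 12.30, 12.48 and 12.44 in the library order. Nop2 (a ribosomal RNA methyltransferase), Rrp1b, Noc3l, Wdr74 and Grwd1 had receptor differences with K8 from -0.08 to 0.54.

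No snoRNP protein was 2-fold apart in any comparison, which for so few genes is again near the background, with 5.96% higher and 1.84% lower between receptors with K8. Fibrillarin (Fbl), the methyltransferase of box C/D particles, stood at 14.05 in TRP1high with M9, 13.95 in TRP1high with K8, 14.18 in TRP1low with M9 and 14.12 in TRP1low with K8. Rrp9, a protein of the particle that guides early cleavage of the precursor, stood at 12.12, 12.26, 12.50 and 12.44. Nop58 and Nop56 are the paired core proteins of the box C/D particle, and with K8 Nop56 was 0.59 higher and Nop58 0.16 lower in TRP1high than in TRP1low. Of the box H/ACA proteins, Nhp2 stood at 13.58, 13.53, 13.89 and 13.59, and Dkc1 (dyskerin, the pseudouridine synthase) and Gar1 differed by 0.44 or less in each comparison.

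**Figure D2:**
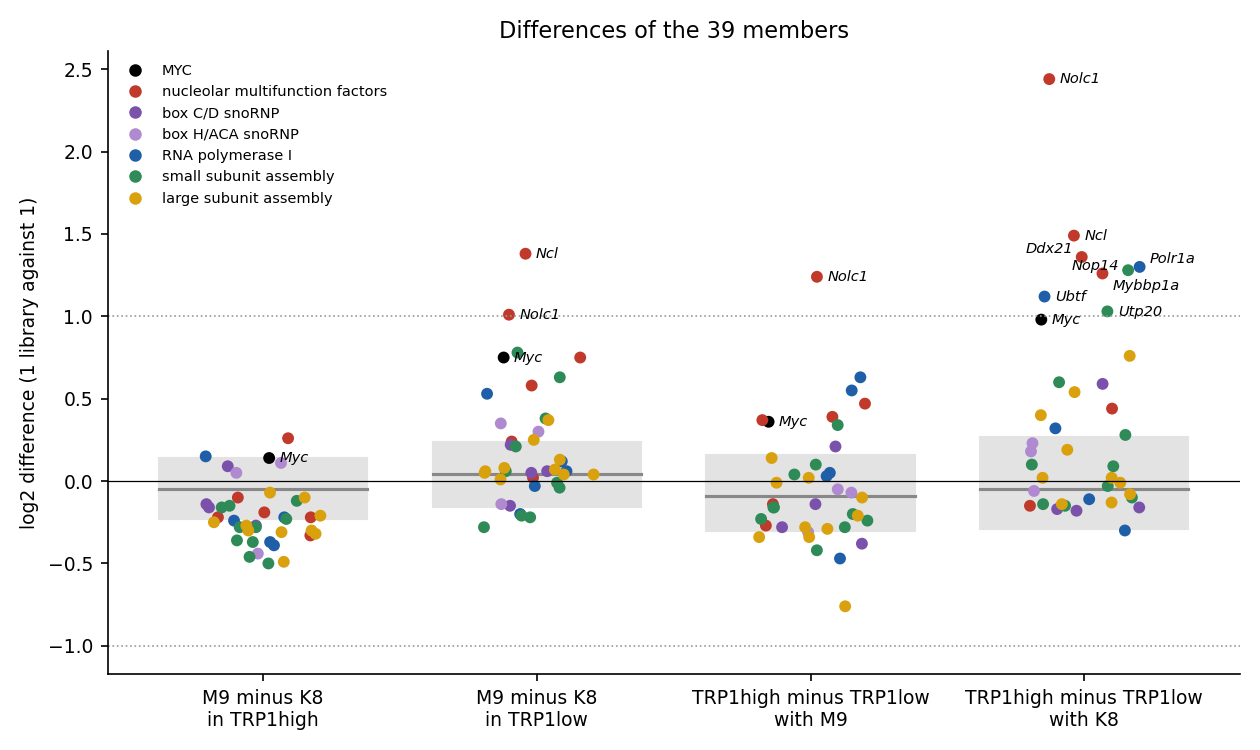
Difference of each of the 39 members on the log2 scale (points, coloured by role) in the 4 comparisons of 1 library with 1 other, with dotted lines at 2-fold, and a grey line and box for the median and quartiles of the 3809 genes at least as abundant as the lowest member. Between receptors with K8, 8 members lie above the upper dotted line and none below the lower, while in TRP1high no member passes either line between peptides.

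Counted over the module, M9 against K8 in TRP1high gave a median log2 difference of -0.23, with 33 of 39 members below 0 and a range of -0.50 to 0.26. No member was 2-fold apart, whereas 9.87% of the 16100 genes tested and 1.76% of the 3809 genes at least as abundant as the lowest member were, in either direction. Over those 3809 genes the median was -0.05, with 57.2% below 0. All 10 small subunit and all 10 large subunit factors were below 0, and Ncl, Polr1c, Myc, Gar1, Fbl and Nhp2 were above it. The B cell markers also differed between this pair of libraries, with all 14 lower with M9. In TRP1low 10 of the 14 were lower with M9 and 4 higher. The part of B cell RNA in either comparison was not tested.

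M9 against K8 in TRP1low gave a median of 0.07, with 30 of 39 members (76.9%) above 0. Over the abundant genes the median was 0.04, with 56.1% above 0. Ncl and Nolc1 were at least 2-fold higher with M9 (2 of 39) and none was 2-fold lower. Over all genes tested 7.67% were 2-fold higher and 7.43% 2-fold lower, and over the abundant genes 2.91% and 1.13%. At 1.5-fold, 6 members were higher with M9, against 13.9% of all genes tested and 7.98% of the abundant genes. Nolc1 falls just short of 2-fold under 2 other scalings of the libraries, and with equal library totals the members divide into 20 above and 19 below 0, so the median direction in TRP1low rests on small differences. All 10 large subunit factors were above 0 as deposited, though by 0.01 to 0.37.

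TRP1high against TRP1low with M9 gave a median of -0.14, with 24 of 39 members (61.5%) below 0. Over the abundant genes the median was -0.09, with 60.6% below 0, so the members lie near that background. Nolc1 alone was 2-fold higher and no member was 2-fold lower, against 7.37% higher and 5.58% lower of all genes tested, and 2.31% and 1.16% of the abundant genes. The 3 members with the highest difference were Nolc1 (1.24), Ubtf (0.63) and Polr1a (0.55), and the 3 with the lowest were Wdr12 (-0.76), Polr1b (-0.47) and Utp18 (-0.42).

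TRP1high against TRP1low with K8 gave the widest split, with a median of 0.18 and a range of -0.30 to 2.44. Above 0 were 24 of 39 members (61.5%). Over the abundant genes the median was -0.05, with 44.8% above 0. Ncl, Nolc1, Mybbp1a, Ddx21, Polr1a, Ubtf, Utp20 and Nop14 were at least 2-fold higher in TRP1high, and no member was 2-fold lower. These 8 are 20.5% of the members, against 10.6% higher and 8.35% lower of all genes tested, and 5.96% and 1.84% of the abundant genes. At 1.5-fold, 12 members were higher and none lower. At that threshold 17.5% of all genes tested were higher and 15.8% lower, and 13.2% and 8.37% of the abundant genes. The same 8 genes passed 2-fold under both other scalings of the libraries. Those scalings shifted this comparison by only -0.001 and 0.004, so they are no check of the 8. The other 31 members had 15 of their number below 0, the lowest being Polr1c (-0.30), Rrp9 (-0.18) and Fbl (-0.17). Both receptor comparisons and both peptide comparisons draw on the same 4 libraries, so a receptor and a peptide comparison that meet in a library are not separate evidence.

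Where each member was lowest shows the same split. TRP1high with M9 was the lowest of the 4 libraries for 18 members and TRP1low with K8 for 17, while TRP1high with K8 was the lowest for 3 and TRP1low with M9 for 1. In the abundant genes these shares were 37.1% for TRP1high with M9, 31.5% for TRP1low with K8, 20.9% for TRP1high with K8 and 10.4% for TRP1low with M9, against 46.2%, 43.6%, 7.69% and 2.56% of members. The highest library was TRP1high with M9 for 2 members, TRP1high with K8 for 18, TRP1low with M9 for 12 and TRP1low with K8 for 7. Those are 5.13%, 46.2%, 30.8% and 17.9% of members, against 21.4%, 21.1%, 24.6% and 32.9% of the abundant genes. With equal library totals TRP1low with M9 was the highest for 4 members and TRP1low with K8 for 13, so the order of these 2 libraries moves with the scaling. For 11 members (28.2%, against 8.74% of the abundant genes) both TRP1high libraries lay above both TRP1low libraries, with K8 above M9 in TRP1high and M9 above K8 in TRP1low. These were Nolc1, Mybbp1a, Ddx21, Nop56, Polr1a, Ubtf, Rrn3, Utp20, Nop14, Nop2 and Noc2l. No test of these shares was made.

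Much of the spread came from a single library. Between the highest and the lowest of the 4 libraries, 9 members were at least 2-fold apart, the 8 above and Myc, which is 23.1% of members, against 35.2% of all genes tested and 15.1% of the abundant genes. Without TRP1low with K8, Nolc1 alone remained 2-fold apart (2.56%), against 21.7% of all genes tested and 5.88% of the abundant genes. With any other library left out, 7 to 9 members (17.9% to 23.1%) were 2-fold apart. The shares were then 27.5% to 30.0% of all genes tested and 9.71% to 14.1% of the abundant genes. TRP1low with K8 is also the shallowest library and the one with the most erythroid marker RNA, and receptor, peptide and library cannot be told apart at 1 library per group.

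**Figure D3:**
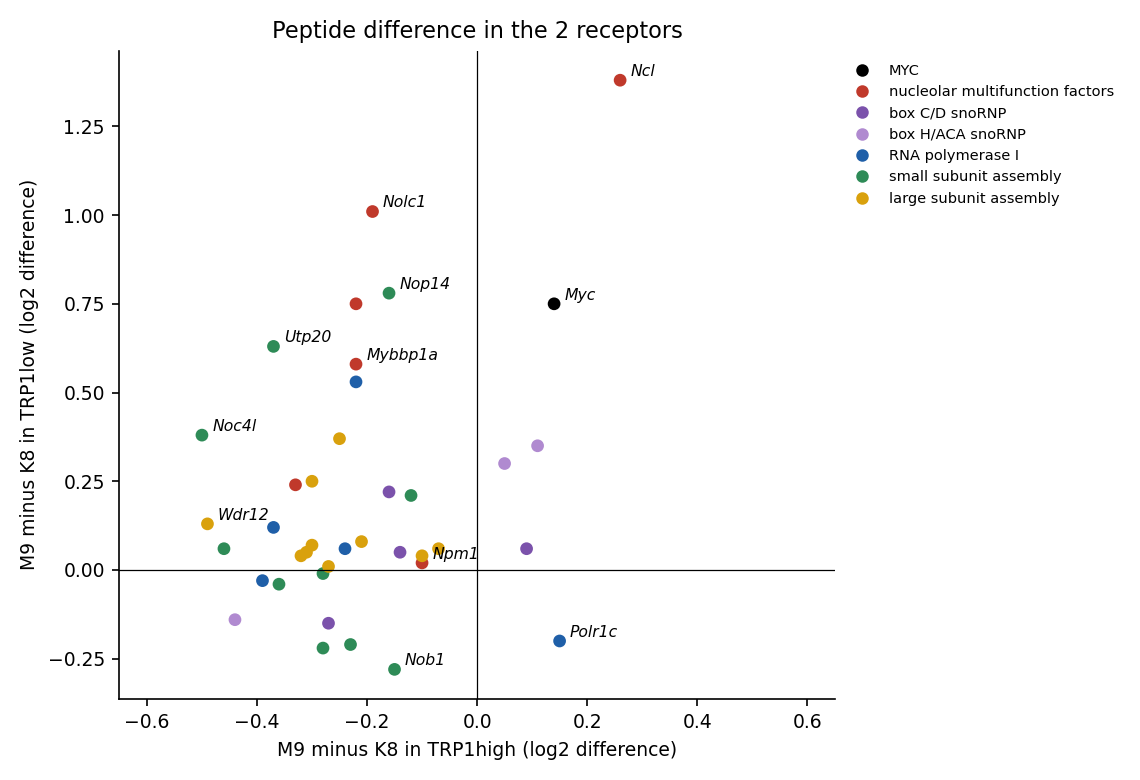
M9 minus K8 in TRP1high (horizontal axis, log2) against M9 minus K8 in TRP1low (vertical axis, log2) for the 39 members, coloured by role. The upper left quadrant, lower with M9 in TRP1high and higher with M9 in TRP1low, holds 25 members as deposited (16 with equal library totals), and Ncl and Myc lie in the upper right.

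The peptide pairs of the 2 receptors share no library and can be set side by side. From M9 against K8, 25 of 39 members (64.1%) were lower in TRP1high and higher in TRP1low, against 22.8% of all genes tested and 23.9% of the abundant genes. All 10 large subunit factors were among the 25. With equal library totals the count is 16 members (41.0%), against 21.0% of all genes tested and 20.5% of the abundant genes, and 5 of the 10 large subunit factors are among them. In the 2 receptors together, 5 members were higher in both (Myc, Ncl, Fbl, Gar1 and Nhp2), 8 were lower in both, and Polr1c alone had the remaining pair of directions, higher with M9 in TRP1high (0.15) and lower in TRP1low (-0.20). The peptide difference in TRP1high minus that in TRP1low had a median of -0.36 over the members, with 36 of 39 below 0, and -0.08 over the abundant genes, of which 61.2% were below 0. Nolc1 (-1.20) and Ncl (-1.12) were past 2-fold in this quantity, against 9.68% of all genes tested and 2.78% of the abundant genes that were 2-fold lower. At 1.5-fold 11 members were lower, against 16.5% and 7.98%. These differences between differences have no residual degree of freedom and were not tested.

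Limma, fitted to all 16100 genes with receptor and peptide as additive terms, leaves 1 residual degree of freedom, which measures the disagreement between the pairs and not the spread between cultures. With Benjamini-Hochberg adjustment, 0 of 39 members passed an adjusted p of 0.05 for the receptor or for the peptide, and 0% of all genes tested did for the receptor and 0% for the peptide. At an unadjusted p under 0.05 there were 2043 genes for the receptor and 1342 for the peptide, among them 1 member, Nolc1, for the receptor. By limma, Nolc1 was 1.84 higher in TRP1high over both peptides (SE 0.43, Benjamini-Hochberg adjusted p = 0.384), Ncl 0.93 higher (SE 0.41, adjusted p = 0.445) and Myc 0.67 higher (SE 0.27, adjusted p = 0.433). For the peptide, limma gave Ncl 0.82 higher with M9 (SE 0.41, Benjamini-Hochberg adjusted p = 0.671) and Myc 0.44 higher (SE 0.27, adjusted p = 0.705). With a trend on mean level in limma, Nolc1 passed for the receptor at a Benjamini-Hochberg adjusted p of 0.0488, 1 of 39 members, beside 1.61% of all genes tested.

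The 8 members 2-fold higher in TRP1high with K8 had long coding sequences, as did several members that were not. Their longest coding lengths ran from 2106 to 8367 nt with a median of 2566.5 nt, against 459 to 6429 nt and a median of 1608 nt in the 31 others. Across the 39 genes, Spearman's correlation of coding length with the receptor difference with K8 was 0.50, and across 3630 abundant genes with a length it was 0.22; genes are not independent replicates and no p is given. The same correlation was -0.49 over members and -0.31 over abundant genes for M9 against K8 in TRP1high, 0.21 and -0.06 for M9 against K8 in TRP1low, and 0.32 and 0.15 for TRP1high against TRP1low with M9. Among the other long members, Heatr1 (6429 nt), Rrp12 (3885 nt) and Polr1b (3405 nt) had receptor differences with K8 of -0.15, 0.28 and -0.11. Noc3l, Tsr1, Nop2, Noc2l, Bop1 and Rrp1b, at 2172 to 2421 nt, also exceed the shortest of the 8. Their differences ran from -0.14 to 0.76. No member shorter than 2106 nt was 2-fold higher, while several longer ones were not either. The part of length in these differences was not tested. GC content of the coding sequence had a correlation of -0.05 over members and 0.29 over abundant genes. The richest 60-base window of A and G in the coding sequence held 81.7% to 91.7% purines in the 8 (median 85.85%), against 66.7% to 90.0% (median 80.0%) in the others. Its correlation with the receptor difference with K8 was 0.42 over members and 0.21 over abundant genes. As a maximum over all windows it can rise with coding length, so it is not separate from length. Whether library preparation or RNA integrity differed with length was not tested.

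**Figure D4:**
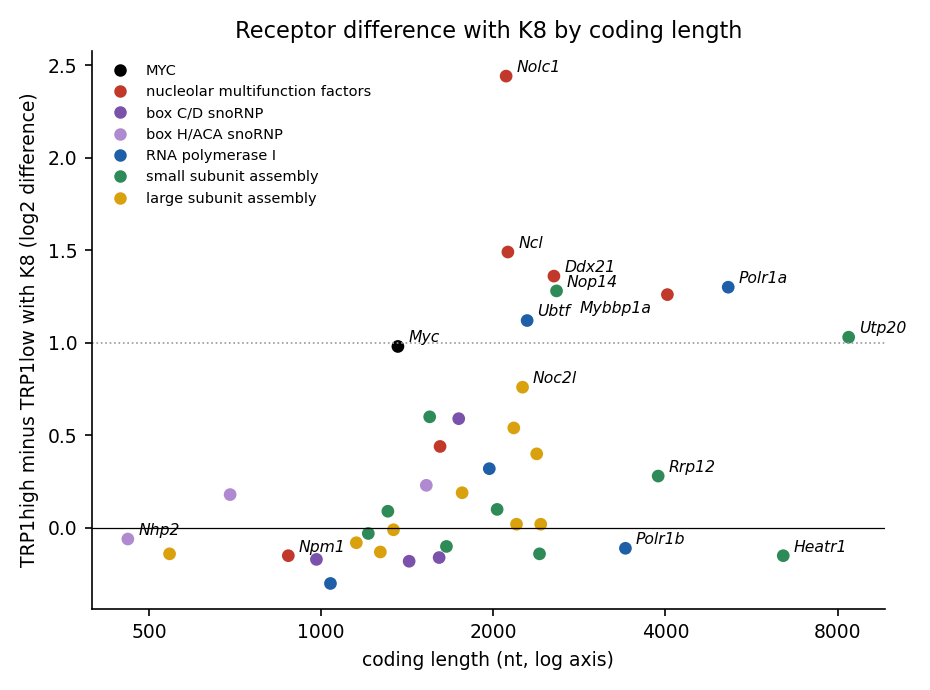
Receptor difference with K8 (TRP1high minus TRP1low, log2, vertical axis) against longest coding length (nt, log axis) for the 39 members, coloured by role, with the dotted line at 2-fold. All 8 members above the line have coding sequences of at least 2106 nt. Heatr1, Rrp12, Polr1b, Noc3l, Tsr1, Nop2, Noc2l, Bop1 and Rrp1b are also longer than that without lying above the line.

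Host genes of small nucleolar RNAs were 7 of the 39 in the GENCODE annotation: Ncl, Gnl3, Nop56, Nop58, Dkc1, Wdr43 and Tsr1. Their median receptor difference with K8 was 0.23, against 0.14 in the 32 others, and their median peptide difference in TRP1high was -0.28, against -0.22. Ncl was the only host among the 8. In the annotation 12 members overlap a measured gene on the opposite strand and none of the 8 does; whether the reads were counted by strand is not given in the sources used here, so such reads cannot be told apart from the partner's.

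Other genes of the same pathway were taken from lists by function. Of 12 other RNA polymerase I and selectivity factor genes, 3 were 2-fold higher in TRP1high with K8 and none lower, where 10.6% of all genes tested were higher. Tcof1 (treacle), which acts with UBTF in ribosomal DNA transcription, had 7263 normalized counts in TRP1high with M9, 7306 in TRP1high with K8, 1535 in TRP1low with M9 and 433 in TRP1low with K8. Its receptor difference of 4.08 with K8 and 2.24 with M9 was wider than that of any member. Ttf1, the terminator factor, and Cd3eap, a polymerase subunit, differed by 1.66 and 1.54 with K8 and by 0.59 and 0.58 with M9. Twistnb, another subunit, was lower in TRP1high than in TRP1low with M9 (-1.03).

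Of 40 other small subunit assembly genes, 35 were below 0 for M9 against K8 in TRP1high (median -0.26). In that list 3 of 40 were 2-fold higher in TRP1high with K8, a share that lies between the 5.96% of the abundant genes and the 10.6% of all genes tested: Dhx37 (1.63), Rbm19 (1.17) and Pdcd11 (1.02). Of 47 other large subunit assembly genes, 40 were below 0 for the peptide in TRP1high (median -0.16), and none was 2-fold apart in any comparison. Between receptors with K8, 5.96% of the abundant genes were 2-fold higher in TRP1high and 1.84% lower. With M9 the shares were 2.31% and 1.16%. The 9 other snoRNP and snoRNP assembly genes had no 2-fold difference, near that background for so few genes, and medians from -0.14 to 0.24. Among 12 exosome genes, Exosc6 was listed at 0 in TRP1high with M9, against 224 normalized counts in TRP1high with K8, 321 in TRP1low with M9 and 390 in TRP1low with K8, and no other was 2-fold apart.

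Among 12 genes of the MYC network, Max, the partner of MYC, stood at 12.11, 12.33, 12.25 and 12.29 in the library order. Mxd1, a MAX partner that opposes MYC at E-boxes, was higher in TRP1high than in TRP1low under both peptides, with 406 normalized counts in TRP1high with M9, 325 in TRP1high with K8, 81.5 in TRP1low with M9 and 105 in TRP1low with K8. Mxi1, of the same family, had 2020, 1023, 1066 and 376 in that order. Mxd4, also of that family, stood apart in TRP1low with K8 at 752, against 246, 154 and 111 in the other 3 libraries in order. TRP1low with K8 therefore had the lowest Myc and the highest Mxd4 of the 4. The 24 other MYC target genes had no 2-fold difference. Of the abundant genes, 5.96% were 2-fold higher in TRP1high and 1.84% lower with K8, and 2.31% and 1.16% with M9. The medians of these targets were -0.37 (23 below 0) for TRP1high against TRP1low with M9 and -0.14 (18 below 0) with K8. Over the abundant genes the medians were -0.09 with M9 (60.6% below 0) and -0.05 with K8 (55.2% below 0). Myc itself was 0.36 and 0.98 higher in TRP1high in the same comparisons.

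Of the 8 proliferation markers, Mki67 and Top2a were 2-fold higher in TRP1high with K8, and Mki67 also with M9. The shares 2-fold higher with K8 were 10.6% of all genes tested and 5.96% of the abundant genes, and with M9 7.37% and 2.31%. Mki67, the nuclear protein of cycling cells, had 5686 normalized counts in TRP1high with M9, 5967 in TRP1high with K8, 1263 in TRP1low with M9 and 435 in TRP1low with K8. Top2a, the topoisomerase of dividing cells, had 22977, 21165, 14016 and 7980, whereas Birc5 had 5895, 6565, 6100 and 6032 and Cdk1 6939, 6023, 7412 and 6169. Mki67 and Top2a thus followed the same order of receptors as Nolc1 and Ncl, and Birc5 and Cdk1 did not. Mcm2, of the replicative helicase, had 10456, 15314, 14717 and 16043 in the same order, and was lower in TRP1high than in TRP1low with M9 (-0.49). Mcm5 of that helicase, Pcna and Ccnb1 were also lower in TRP1high under both peptides, by 0.06 to 0.26.

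**Figure D5:**
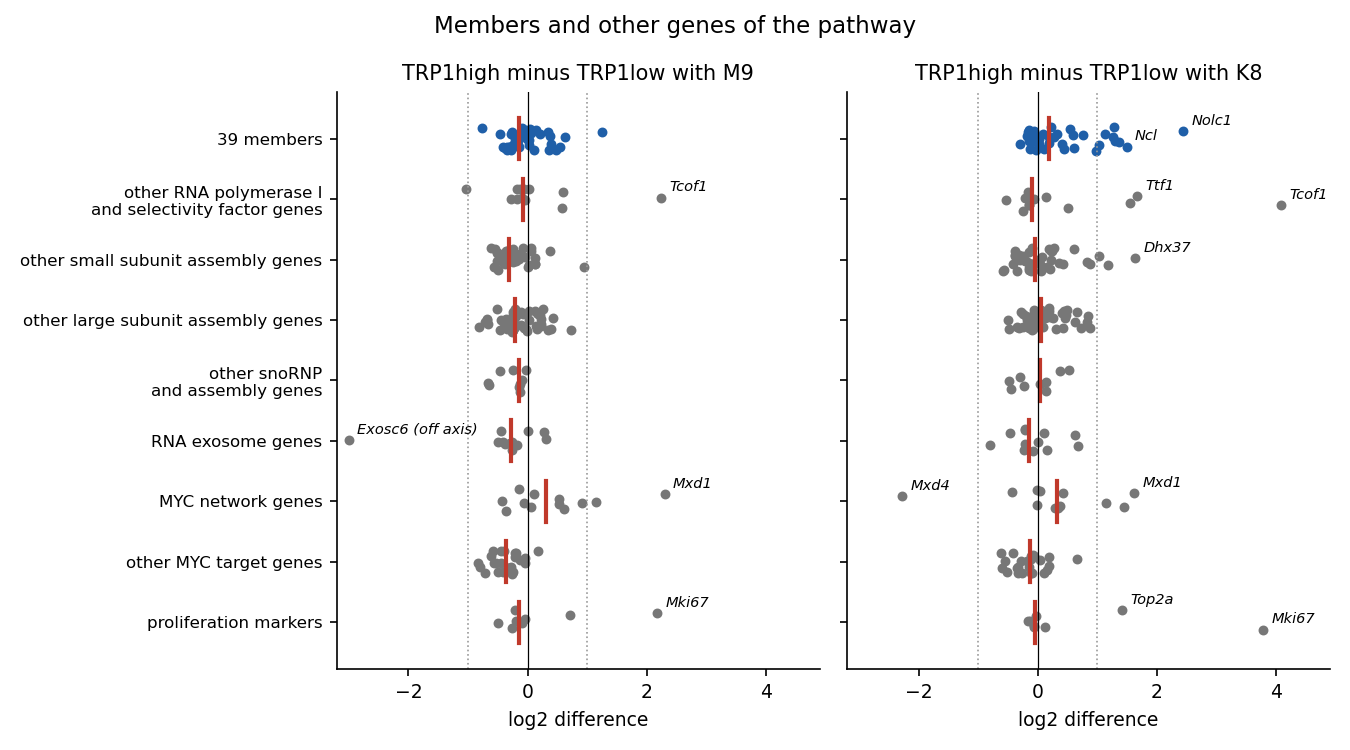
Log2 difference between TRP1high and TRP1low with M9 (left) and with K8 (right) for the 39 members and 8 other gene lists (rows), with 1 point per gene, red bars at each median and dotted lines at 2-fold. Every list's median lies within 0.37 of 0 in both panels, while Nolc1, Tcof1, Mxd1 and Mki67 lie past 2-fold higher in both. Mxd4 lies past 2-fold in both in opposite directions, higher with M9 (1.14) and lower with K8 (-2.28).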

How the data were processed

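RNA sequencing libraries of sorted mouse T cells were grouped by the receptor and peptide in their labels, with 1 library in each of 4 groups. Values were used as deposited by the authors, who give a log2 normalized count for every gene symbol in the column headers. The lowest value was 0, and low values fell on multiples of 1 step per library, so 1 is taken to have been added before the logarithm. The submitters' processing notes name Salmon 0.8.2, DESeq2 1.20.0 and mm10. For their settings, annotation and filters, nothing is given in the sources used here. Dividing by the step gave estimated reads. Only 56.2% to 56.4% of the values up to 50 came out whole (tolerance 0.01 read), so no count test was run.

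The 39 members, the lists, the markers and the rules were chosen with earlier results of these data known. Of 16338 rows, 2 with a repeated name were left out, and 16100 genes whose mean normalized count reached 1 were tested. Single comparisons are differences between 2 libraries with no p. A gene counted as 2-fold apart had to reach 10 normalized counts in 1 or both of its libraries. A member's fold is the ratio of its normalized counts, with 95% exact counting intervals on rounded estimated reads. The abundant background of 3809 genes was added after the data were seen. Limma 3.58.1 in R 4.3.3 fitted receptor and peptide to the log2 values (eBayes, no trend, Benjamini-Hochberg at 0.05), and the script was tested on simulated data. Python 3.11.15 with pandas 2.3.3 and scipy 1.17.1 did the rest. Positions, longest coding sequences and snoRNA hosts came from GENCODE M21 on GRCm38 and promoters from RefSeq. The level of 1 marker gene is not reported here.

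Named with values were Myc, every member 2-fold apart, the 3 highest and 3 lowest members of each comparison and the member with the highest level per kilobase in each role. List genes were named, at most 5 per list, where 2-fold apart in the same direction under both conditions, and otherwise in 1 comparison; Max, Birc5, Cdk1, Mcm2, Mcm5, Pcna, Ccnb1 and further members were named after their values were seen. Alternatives were added values of 0.5 and 10, other scalings, other filters, a 1.5-fold threshold, a limma trend and, added later, each library left out and the scalings of the counts by direction and order.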

Additional observations from a re-analysis of the deposited data

Results flagged for a closer look

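The median peptide difference of the 39 members, M9 minus K8, was 0.07 in TRP1low and -0.23 in TRP1high, so the receptors had opposite signs. Over the 3809 abundant genes it was 0.04 and -0.05, also of opposite sign but closer together. Gene by gene, 64.1% of members were lower with M9 in TRP1high and higher in TRP1low, against 23.9% of the abundant genes. With equal library totals these shares were 41.0% and 20.5%. With equal library totals 20 members were above 0 and 19 below in TRP1low. The median receptor difference, TRP1high minus TRP1low, was 0.18 with K8 and -0.14 with M9, again of opposite sign. Over the abundant genes it was -0.05 with K8 and -0.09 with M9, so the value with M9 lies near that background. Nolc1 was 0.19 lower with M9 than with K8 in TRP1high and 1.01 higher in TRP1low, and the peptide difference in TRP1high minus that in TRP1low was -1.20. Each rests on 1 library per group, and the differences between the groups were not tested. Single members were taken up here where the gap was at least 2-fold and the signs were opposite.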

How the results depend on the processing

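No paired analysis was possible because each group holds 1 library and the labels give no replicate numbers. Under other added values, scalings and filters, 936 of 936 values of single members moved by less than 0.096 on the log2 scale, although 10 members changed sign in TRP1low with equal library totals. Moves this small were bound to follow and are no check of the values. Filters leave a gene's own difference unchanged, added values hardly move such deeply read genes, and a scaling shifts all members of a comparison nearly alike. Of 138 counts and medians under the alternatives, 126 moved by no more than 1.5 times (counts) or 0.096 (medians), and the 12 others follow. At exactly 1.5 times, TRP1high against TRP1low with K8 had 12 members higher at 1.5-fold, against 8 at 2-fold. For M9 against K8 in TRP1low, the members 2-fold higher numbered 2 as deposited, 1 with each library's median ratio set to 0 and 1 with equal library totals, since Nolc1 then fell under 2-fold, and 6 at 1.5-fold. At 1.5-fold, TRP1high against TRP1low with M9 had 2 members higher and 1 lower, against 1 and 0 at 2-fold, and the difference between peptide differences had 11 lower, against 2. Without the TRP1low with K8 library, an alternative chosen after seeing the data, 1 member was 2-fold between its highest and lowest library, against 9 with all 4; without the others it was 7 to 9. With a trend in limma, 1 member passed for the receptor, against 0; the cause was not tested. With equal library totals, an alternative also chosen after seeing the data for these counts, 16 members were lower with M9 in TRP1high and higher in TRP1low, against 25. TRP1low with M9 was then the lowest library for 2 members, against 1, and the highest for 4, against 12, while TRP1low with K8 was the highest for 13, against 7. The largest shift of a library by scaling was 0.042 on the log2 scale. Counting error was at most 0.096 on the log2 scale to either side for a member's difference; the part of depth in the results was not tested.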
